A study of Mus musculus with 18 samples.

Results

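p53, encoded by Trp53, is a transcription factor that accumulates after DNA damage and other stress and switches on genes for cell cycle arrest, repair and cell death. Its protein is held low by Mdm2, a ubiquitin ligase whose gene is itself a p53 target, so that p53 is controlled mainly at the level of the protein and only in part at that of its transcript. In the spleen, the lymphocytes of the white pulp and the dividing erythroid cells of the red pulp are known for a strong p53 response.

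The transcripts of Trp53 and of 9 of its direct target genes (Mdm2, Cdkn1a, Ccng1, Phlda3, Sesn2, Eda2r, Zmat3, Trp53inp1 and Aen) were followed in the mouse spleen. These 10 genes were taken by symbol from the 19326 lines of the table. They were selected on earlier results of the same libraries. Which values decided the choice is not recorded, and the comparison of diabetic with control spleens is treated as used by it, so its values are given as a description and nothing is read from its count of members past a threshold. Other comparisons were known in part as well, and no result is known to be independent of the choice. RNA of 18 spleens was sequenced, 3 in each of 6 groups, all from ICR mice aged 10 weeks, which the study describes as male. Con mice were the controls. A10 mice were given 10 mg/kg of alginate oligosaccharide (AOS), short chains of the sugars that make up alginate in brown algae. STZ mice were made diabetic with streptozotocin, which enters and kills the insulin-producing cells of the pancreas by alkylating DNA. STZ-A10 mice received both STZ and AOS. Con-FMT and A10-FMT mice received STZ and then a fecal microbiota transplant (FMT), from control donors in Con-FMT and from donors given AOS in A10-FMT. The donor material, which the study took from the small intestine, was pooled within a donor group, so the transplanted animals of a group shared 1 source. No gene is altered in these animals, and a whole spleen mixes many cell types.

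The level of a gene is given in RPKM, the reads of a gene corrected for its length and for how many reads of the library were mapped, which allows levels of different genes to be compared. Differences are given as log2 fold changes of RPKM + 1, which understate the change of genes with low values. Of 10 members, 9 reached an RPKM of 1 in at least 3 libraries and were tested together with all such genes, 12905 in all, with limma and Benjamini-Hochberg adjustment over all of them.

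The sequences around the start of the members' genes were searched for the letters of a p53 half-site. Any link between these letters and the level of a member was not tested. The windows run from 250 bases before to 50 bases after a RefSeq transcript start (GRCm38.p6), and 8 members were matched to a window. The p53 half-site consensus of 10 bases was searched on both strands (it reads the same on each), with overlapping matches allowed. It was present in a window of 5 of these 8 members (Trp53, Mdm2, Cdkn1a, Ccng1 and Aen), and of 9.55% of all genes with a window. Counted by window, it was present in 8.36% of all 32851. A match describes letters and is not a binding site. The half-site is in capitals in each of the following stretches, which are written 5′ to 3′ on the strand of the gene.
Trp53, chr11:69580274-69580303, plus strand: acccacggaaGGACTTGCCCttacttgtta
Mdm2, chr10:117710925-117710954, minus strand: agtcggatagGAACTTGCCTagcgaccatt
Ccng1, chr11:40755452-40755481, minus strand: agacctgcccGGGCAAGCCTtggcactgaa
Aen, chr7:78895927-78895956, plus strand: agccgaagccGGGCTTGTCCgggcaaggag

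Cdkn1a held 2 half-sites, 12 bases apart, in the window of its upstream start. A pair at most 13 bases apart was present in 24 of all windows (0.0731%). The whole upstream part of that window is shown, with both half-sites in capitals.
Cdkn1a, chr17:29090729-29090978, plus strand: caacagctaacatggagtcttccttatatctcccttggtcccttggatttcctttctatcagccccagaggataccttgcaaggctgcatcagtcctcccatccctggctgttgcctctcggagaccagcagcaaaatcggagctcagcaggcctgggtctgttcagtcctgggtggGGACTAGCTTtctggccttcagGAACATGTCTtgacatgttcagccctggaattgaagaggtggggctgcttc
The half-site nearer to the start, GAACATGTCT, is followed directly by TGACATGTTC, which matches the consensus at 9 of 10 bases. In Ccng1 the 10 bases before the half-site match it at 9 of 10 as well. A half-site that adjoins 10 bases with at least 9 matches was present in 29 of all windows (0.0883%). RefSeq gives Cdkn1a another start downstream, whose window holds no half-site and which lies up to 2863 bases from those shown.

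All 10 members are annotated as protein coding. Trp53 lies on chromosome 11 (69580359 to 69591873, plus strand) and Cdkn1a on chromosome 17 (29090976 to 29100727, plus strand) in GRCm38, by GENCODE M21. An exon of Cdkn1a overlaps one of AC167363.2 on the other strand, and no step of the library preparation described marks the strand, so their reads cannot be told apart. A processed pseudogene of Trp53 lies on chromosome 17 (54419680 to 54420841), and reads could be shared with it. The other members have no exon in common with another annotated gene.

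The members differed widely in level. Trp53 was the most abundant, with a mean RPKM of 91.4 over the 18 libraries, followed by Ccng1 (39.3), Trp53inp1 (35.3) and Mdm2 (29.7). Aen (15.1) and Cdkn1a (11.8) were intermediate, and Phlda3 (7.47), Sesn2 (4.96) and Zmat3 (2.06) were low. Eda2r, a receptor for ectodysplasin A2, ran only from 0.18 to 0.46 RPKM and was not tested. From the smallest steps between low values, a library was estimated to hold 12400000 to 13900000 reads, which puts Eda2r at about 11 to 28 reads and Cdkn1a at about 187 to 530. At so few reads only large differences in Eda2r could be seen. Between its lowest and highest library, Trp53inp1 varied 3.49-fold, Cdkn1a 2.81-fold and Mdm2 1.41-fold.

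**Figure D1:**
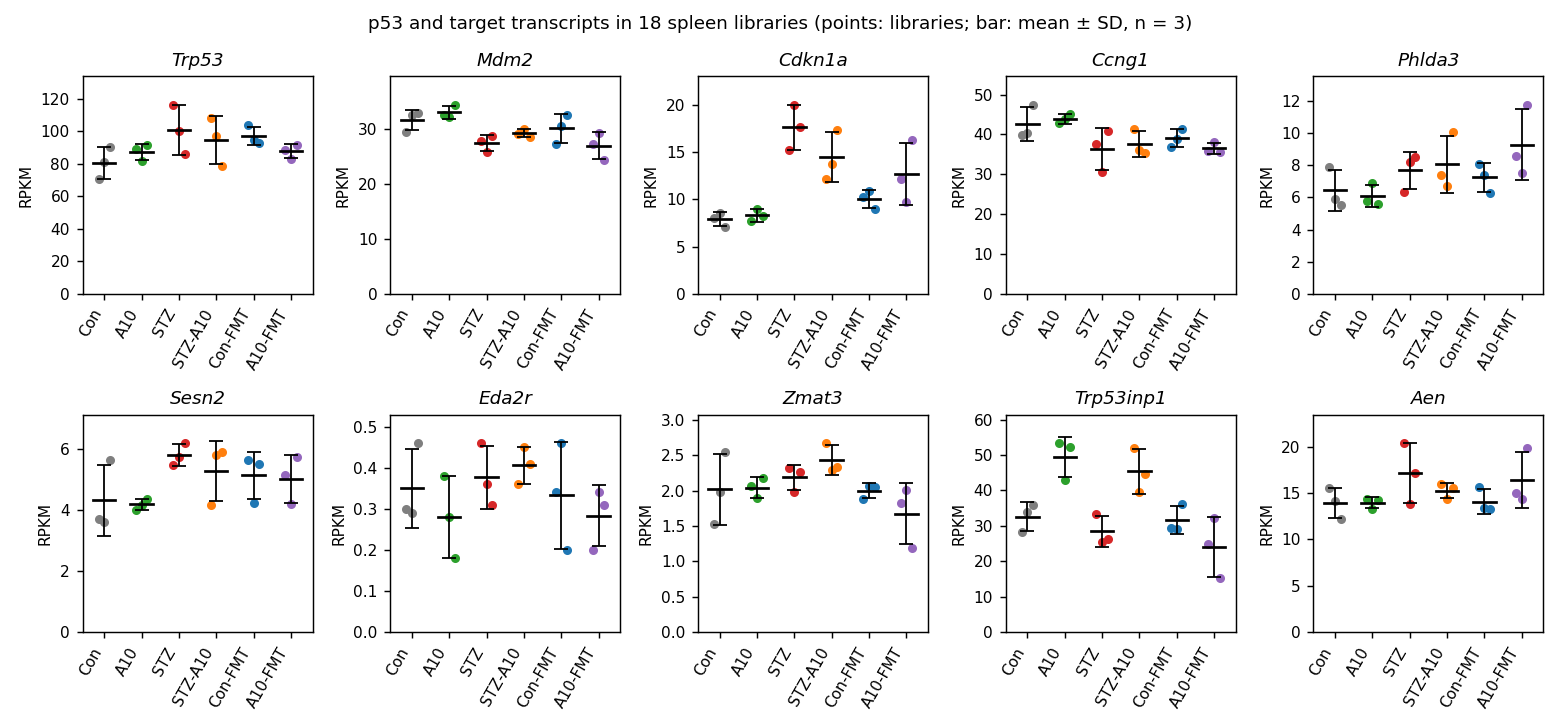
RPKM (linear axis from 0) of the 10 members in the 18 spleen libraries, by group. Points are libraries, the long bar is the mean and the whiskers the SD (n = 3). Cdkn1a sits between 12.2 and 20.0 in the STZ and STZ-A10 libraries and between 7.12 and 9.03 in the Con and A10 libraries, and Trp53inp1 between 39.51 and 53.36 in the A10 and STZ-A10 libraries.

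Several facts of the libraries touch these values. The globin share of the summed RPKM was 10.4% to 42.7%, highest in A10-FMT replicate 3. Over the 18 libraries, the globin share correlated with Phlda3 at a Pearson r of 0.771 (Spearman rho 0.853) and with Trp53inp1 at -0.691 (rho -0.69), as a description of libraries that share groups. Spleen markers of B cells, T cells and red pulp macrophages were present in every library, as the spleen label implies. The summed RPKM of B cell and of T cell genes was lowest in A10-FMT replicate 3, at 513 and 42.0. In replicates 1 and 2 of that group the B cell sum was 1601 and 1747 and the T cell sum 113 and 170. Markers of 3 other organs varied between libraries. The summed RPKM of 7 exocrine pancreas genes ran from 20.5 to 12731, that of 6 liver genes from 4.41 to 292.57, and that of 5 testis germ cell genes from 0.22 to 258.56, the highest in Con replicate 2. The testis sum was 16.5 to 258.56 in Con, 2.25 to 7.61 in STZ and 1.30 to 2.25 in A10. In STZ-A10, Con-FMT and A10-FMT it reached at most 1.59, 1.63 and 0.77. Of 4 tested testis genes, 1 passed the adjusted threshold by limma, lower in STZ against Con (0.163% of all tested genes). The liver sum was 17.9 to 201 in Con, 4.93 to 5.92 in STZ, 13.1 to 64.4 in A10 and 4.41 to 12.5 in STZ-A10. It was 7.73 to 34.0 in Con-FMT and 74.6 to 292.57 in A10-FMT. The part of these markers in the members' values was not tested. In a bulk tissue, fewer cells of a type and less RNA per cell cannot be told apart.

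STZ was compared with Con to describe diabetes in the spleen. Cdkn1a, which encodes the cyclin-dependent kinase inhibitor p21, was 15.20, 20.00 and 17.68 RPKM in STZ and 8.01, 8.61 and 7.12 in Con. All STZ libraries lay above all Con libraries, and the log2 fold change was 1.06 (SE 0.163). Trp53 was 116.33, 100.40 and 85.81 in STZ and 70.87, 81.06 and 90.47 in Con, so that the groups overlapped, with a log2 fold change of 0.31 (SE 0.131). Mdm2 was 27.86, 25.78 and 28.67 in STZ and 29.51, 32.45 and 32.91 in Con. The STZ libraries of Mdm2 lay below all Con libraries, the opposite direction to Cdkn1a, at a log2 fold change of -0.20 (SE 0.0913).

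The libraries of the other tested members overlapped between STZ and Con. Sesn2, a stress-induced inhibitor of mTORC1 signaling, had a mean ± SD of 5.80 ± 0.366 RPKM in the 3 STZ libraries and of 4.33 ± 1.16 in Con. Aen, a nuclease of p53-dependent apoptosis, was 17.1 ± 3.25 and 13.9 ± 1.66. Ccng1, the atypical cyclin G1, was 36.4 ± 5.27 and 42.5 ± 4.26. Sesn2 and Aen had higher and Ccng1 lower means in STZ. Phlda3, an inhibitor of AKT, had a log2 fold change of 0.23, Zmat3, an RNA-binding zinc finger protein, of 0.09, and Trp53inp1, a promoter of autophagy and cell death, of -0.20. Of the 9 tested members 6 were higher and 3 lower. Their median log2 fold change was 0.23, and that of all tested genes was -0.01. 1 of 9 members (Cdkn1a) was past the adjusted threshold of 0.05, where 0.163% of all tested genes were, and 2 (Cdkn1a and Mdm2) had groups that did not overlap, as did 12.8% of all tested genes. Since this comparison is treated as used to choose the members, nothing is read from these counts.

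Markers of other cells moved in the same comparisons as Cdkn1a. All 6 red pulp macrophage genes (Spic, Vcam1, Slc40a1, Hmox1, Cd163 and Adgre1) had higher mean log2 levels in STZ against Con and in STZ-A10 against A10, and 6 of 6 were lower in A10-FMT against STZ and 5 of 6 in Con-FMT against STZ. By limma, 0 of them passed the adjusted threshold in these comparisons. At an unadjusted p under 0.05 there were 3, 4, 5 and 4, and 11.1%, 10.2%, 17.2% and 5.24% of all tested genes. Their summed RPKM was 494 to 543 in STZ and 357 to 507 in Con, 512 to 659 in STZ-A10 and 386 to 449 in A10, and 399 to 518 in Con-FMT and 295 to 426 in A10-FMT, and none was at 0 in any library.

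Of 7 exocrine pancreas genes, 6 were higher in STZ against Con and 6 in STZ-A10 against A10. Their summed RPKM was 720 to 3277 in STZ and 20.5 to 1174 in Con, 3392 to 5588 in STZ-A10 and 35.3 to 444 in A10, and 1071 to 1781 in Con-FMT and 114 to 12731 in A10-FMT, with Amy2b at 0 in STZ replicate 2 and Con replicate 3. All 6 platelet and megakaryocyte genes were lower in both comparisons, with sums of 218 to 666 in STZ and 764 to 1923 in Con, 413 to 675 in STZ-A10 and 677 to 1049 in A10, and 562 to 803 in Con-FMT and 516 to 697 in A10-FMT, and none was at 0. All 5 tested T cell genes were lower in both comparisons. Of 6 B cell genes, 6 were lower in STZ against Con and 5 in STZ-A10 against A10. Of 6 liver genes, 5 and 6 were lower, and all 6 neutrophil progenitor genes in both. Of 10 erythroid genes, 10 were lower in STZ against Con and 2 in STZ-A10 against A10. Of the 6 platelet and megakaryocyte genes, 1 passed the adjusted threshold by limma in STZ against Con and 0 in STZ-A10 against A10. No exocrine pancreas, T cell, B cell, liver, neutrophil or erythroid gene passed, where 0.163% and 0.0542% of all tested genes did. At an unadjusted p under 0.05 there were 6 and 2 platelet, 6 and 0 neutrophil, 5 and 3 liver and 2 and 5 exocrine pancreas genes. For T cells there were 0 and 2, for B cells 0 and 0 and for erythroid cells 0 and 1. Of all tested genes, 11.1% and 10.2% were at that level. The part of these cells in the level of Cdkn1a was not tested.

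STZ-A10 was compared with A10 to see the same treatment in mice given AOS, in libraries that do not enter STZ against Con. Cdkn1a was 12.20, 13.79 and 17.34 RPKM in STZ-A10 and 7.69, 9.03 and 8.20 in A10. The groups did not overlap, and the log2 fold change was 0.72 (SE 0.163, 95% interval 0.37 to 1.07), with an adjusted p of 0.0957 by limma, which missed the threshold. It was 0.83 without STZ-A10 replicate 1 and 0.59 without STZ-A10 replicate 3. Leaving out A10-FMT replicate 3, a library outside this comparison that enters the shared estimate of the spread, moved Cdkn1a past the threshold.

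Mdm2 and Ccng1 lay lower in all STZ-A10 libraries than in all A10 libraries. Mdm2 was 29.15, 29.94 and 28.53 RPKM in STZ-A10 and 32.48, 32.10 and 34.37 in A10, a log2 fold change of -0.17 (adjusted p 0.573 by limma). Ccng1 was 41.26, 36.13 and 35.46 in STZ-A10 and 42.82, 43.85 and 45.25 in A10, a log2 fold change of -0.22 (adjusted p 0.511 by limma). Neither passed the test. Zmat3 lay higher in all STZ-A10 libraries, at 2.67, 2.29 and 2.34 against 2.06, 1.89 and 2.18, at a log2 fold change of 0.17 (adjusted p 0.75 by limma). Trp53 was 108.07, 97.42 and 78.62 in STZ-A10 and 88.91, 81.60 and 91.48 in A10, so its libraries overlapped, and its log2 fold change was 0.11 (adjusted p 0.87 by limma). That value was 0.0048 without STZ-A10 replicate 1 and 0.23 without STZ-A10 replicate 3.

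By limma, 0 of 9 members passed the adjusted threshold between STZ-A10 and A10, where 0.0542% of all tested genes did. 1 (Cdkn1a) had an unadjusted p under 0.05, as did 10.2% of all tested genes, so the members' count was near the background. Groups that did not overlap were found in 4 of 9 members and in 22.6% of all tested genes. The median log2 fold change was 0.12 over the members and -0.03 over all tested genes. The difference between the effect of STZ with and without AOS was tested as an interaction, in which 0 of 9 members and 0% of all tested genes passed by limma, and 0 members (2.86% of all tested genes) had an unadjusted p under 0.05. For Cdkn1a this difference was -0.34 on the log2 scale (95% interval -0.83 to 0.15). Because the larger effect, that of STZ against Con, is treated as used to choose the members, a negative value was favoured by the choice. Over both pairs of groups, Cdkn1a was the single member whose 6 libraries with STZ alone or with AOS (12.2 to 20.0 RPKM) all lay apart from the 6 without STZ (7.12 to 9.03). 2.81% of all tested genes had such a separation in either direction. Since 6 of these 12 libraries make up STZ against Con, this is a description too.

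**Figure D2:**
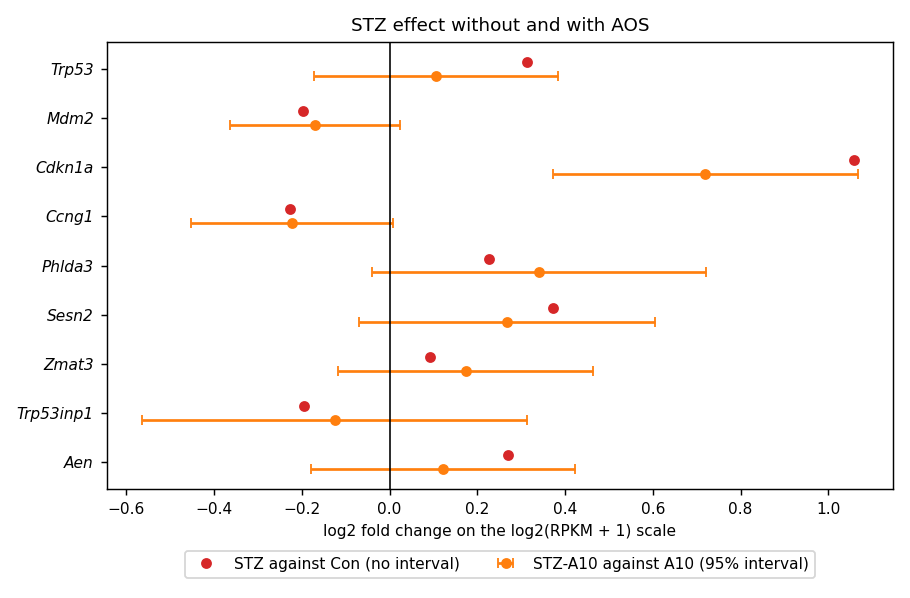
Log2 fold change of the 9 tested members on the log2(RPKM + 1) scale (x axis), in STZ against Con (red, drawn without intervals) and in STZ-A10 against A10 (orange, with 95% intervals from limma). The vertical line marks 0. Cdkn1a lies farthest to the right in both comparisons, at 1.06 and 0.72, while Mdm2, Ccng1 and Trp53inp1 lie left of 0 in both.

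AOS alone was compared with Con, and STZ-A10 with STZ, to see AOS in healthy and diabetic mice. The labels give its dose, and how and for how long these mice received it is not given in the sources used here. In both, the member with the largest difference was Trp53inp1. It was 53.36, 43.06 and 52.14 RPKM in A10 and 28.17, 33.89 and 35.88 in Con, which differed by 0.59 in log2 fold change (SE 0.206, adjusted p by limma 0.716). It was 52.05, 39.51 and 44.65 in STZ-A10 and 33.50, 25.44 and 26.42 in STZ, which differed by 0.66 (SE 0.206, adjusted p by limma 0.996). The groups with and without AOS did not overlap in either pair, and neither difference passed the test. After these values were seen, both groups given AOS were set against Con and STZ in the same fit. The 6 libraries with AOS (39.51 to 53.36) lay above the 6 without it (25.44 to 35.88), with a difference of 0.62 on the log2 scale (SE 0.146, adjusted p by limma 0.329). The transplanted mice, which had all received STZ, lay between 15.29 (A10-FMT replicate 3) and 36.23, below all libraries with AOS too. The share of all tested genes with that pattern was not computed. In the transplant groups the study describes AOS only for the donors of A10-FMT.

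By limma, 0 of 9 members passed the adjusted threshold in A10 against Con, in STZ-A10 against STZ and in the pooled comparison of mice with and without AOS. 1 member (Trp53inp1) was at an unadjusted p under 0.05 in each, as were 5.25%, 2.93% and 5.32% of all tested genes. Of all tested genes, 0.00775% passed in each of the 3. Groups without overlap were found in 1 of 9 members in each (Trp53inp1). Among all tested genes their share was 16.5% in A10 against Con, 8.00% in STZ-A10 against STZ and 0.155% in the pooled comparison. Cdkn1a was 7.91 ± 0.75 RPKM (SD, n = 3) in Con and 8.31 ± 0.676 in A10, and in STZ mice its libraries with and without AOS overlapped as well, at a log2 difference of -0.28 (SE 0.163).

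The members aside, the levels of 5 genes over the 18 libraries were most like those of Trp53inp1. They were Sel1l, Stx5a, Ero1lb, Prdm1 and Slc7a6, with Pearson r of 0.92 to 0.938. This list, like the following one, was drawn up after the values of Trp53inp1 had been seen. The summed RPKM of 8 plasma cell genes (Jchain, Sdc1, Xbp1, Mzb1, Tnfrsf17, Derl3, Prdm1 and Irf4), the antibody-secreting cells of the spleen, was 1300 to 1628 in A10, 746 to 1313 in STZ-A10, 608 to 1143 in Con, 451 to 856 in STZ, 523 to 797 in Con-FMT and 471 to 668 in A10-FMT. All 8 genes had a higher mean log2 level with AOS, in A10 against Con and in STZ-A10 against STZ. Their part in the difference of Trp53inp1 was not tested.

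The transplant groups were compared with STZ to describe the effect of donor microbiota in diabetic mice, and these comparisons share the STZ libraries. Since those libraries also belong to STZ against Con, a lower Cdkn1a than in STZ was favoured by the choice of the members, and its values here are a description. Cdkn1a was 10.30, 10.84 and 9.01 RPKM in Con-FMT, below all STZ libraries (15.20 to 20.00), with a difference of -0.75 on the log2 scale (SE 0.163). In A10-FMT it was 12.20, 9.73 and 16.24, which overlapped with STZ, and differed by -0.46 on that scale (SE 0.163). The lowest transplanted library of Cdkn1a (9.01, in Con-FMT) lay above the highest Con library (8.61) and below the highest A10 library (9.03). The share of all tested genes with transplanted libraries apart from Con was not computed. Trp53 was 103.75, 94.97 and 92.79 in Con-FMT and 88.84, 83.16 and 91.44 in A10-FMT, and overlapped with STZ in both.

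By limma, 0 of 9 members passed the adjusted threshold in Con-FMT against STZ and in A10-FMT against STZ, where 0.00775% of all tested genes passed in each, and 1 member (Cdkn1a) had an unadjusted p under 0.05 in each, as did 5.24% and 17.2% of all tested genes. Groups without overlap were found in 1 of 9 members (Cdkn1a, lower) and 13.2% of all tested genes in Con-FMT against STZ, and in 0 of 9 members and 14.4% of all tested genes in A10-FMT against STZ. Levels in A10-FMT were shifted as a whole, with a median log2 fold change over all tested genes of -0.15 against STZ and -0.17 against Con-FMT. The members' medians were -0.18 and -0.09. The difference of Cdkn1a between A10-FMT and STZ was -0.29 after each library had been centred on its median.

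A10-FMT was compared with Con-FMT to see the treatment of the donors (AOS or water by gavage), in libraries that do not enter STZ against Con. Trp53 was lower in all A10-FMT libraries (83.16 to 91.44 RPKM) than in all Con-FMT libraries (92.79 to 103.75), at a log2 fold change of -0.14 (adjusted p 0.449 by limma), a direction that turned to 0.03 after median centring. Cdkn1a overlapped, at a log2 fold change of 0.29 (adjusted p 0.256 by limma), which was 0.11 without the A10-FMT library of replicate 3 and 0.45 without that of replicate 2. Trp53inp1 was 25.00, 32.15 and 15.29 in A10-FMT and 29.45, 29.13 and 36.23 in Con-FMT, also with overlap, and its log2 fold change of -0.43 (adjusted p 0.216 by limma) became -0.14 without A10-FMT replicate 3 and -0.66, past the threshold, without A10-FMT replicate 2. By limma, 0 of 9 members and 0% of all tested genes passed the adjusted threshold, and 0 members had an unadjusted p under 0.05, where 23.6% of all tested genes did. Groups without overlap were found in 1 of 9 members (Trp53) and 29.3% of all tested genes.

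**Figure D3:**
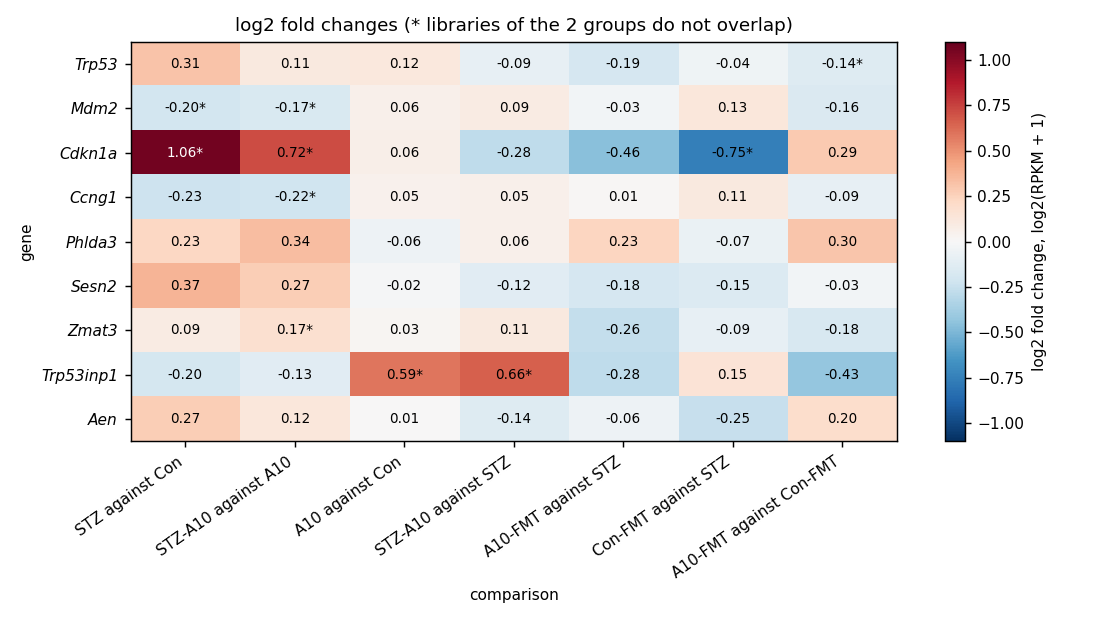
Log2 fold changes of the 9 tested members (rows) in 7 comparisons (columns) on the log2(RPKM + 1) scale, red for higher and blue for lower in the first-named group; an asterisk marks groups whose libraries do not overlap. The values farthest from 0 belong to Cdkn1a where STZ groups are compared with groups without STZ or with Con-FMT, and to Trp53inp1 where groups given AOS are compared with groups not given it.

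The groups were also ordered by the mean level of each member. For Cdkn1a the order was STZ (17.6 ± 2.40 RPKM, SD, n = 3), STZ-A10 (14.4 ± 2.63), A10-FMT (12.7 ± 3.29), Con-FMT (10.1 ± 0.94), A10 (8.31 ± 0.676) and Con (7.91 ± 0.75), and each group overlapped with the next. For Trp53 it was STZ (101 ± 15.3), Con-FMT (97.2 ± 5.80), STZ-A10 (94.7 ± 14.9), A10-FMT (87.8 ± 4.23), A10 (87.3 ± 5.13) and Con (80.8 ± 9.80), again with overlap between all neighbours. Mdm2 ran the other way, from 33.0 ± 1.22 in A10 and 31.6 ± 1.84 in Con to 27.4 ± 1.49 in STZ and 26.9 ± 2.45 in A10-FMT. Of all members and neighbouring groups, the libraries were apart once, between STZ-A10 and Con for Trp53inp1. Phlda3 was highest in A10-FMT (9.28 ± 2.21), the group in which the globin share was highest too.

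Among themselves, the targets did not vary as one. Over the 18 libraries Cdkn1a correlated with Mdm2 at a Pearson r of -0.772 (Spearman rho -0.805) and with Ccng1 at -0.762 (rho -0.748), so both were lower where Cdkn1a was higher. With Phlda3 it correlated at 0.679 (rho 0.724) and with Sesn2 at 0.646 (rho 0.658). Around the means of the groups, r was -0.643 for Mdm2, -0.579 for Ccng1, 0.808 for Phlda3 and 0.275 for Sesn2. Without the libraries of STZ replicates 2 and 3, which lie farthest from the median of Cdkn1a, the 4 values over the remaining libraries were -0.754, -0.804, 0.694 and 0.565. Trp53 followed none of its targets closely, with r from -0.26 (Mdm2) to 0.369 (Sesn2). These are descriptions of libraries that share groups and globin content.

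The genes most like Cdkn1a over the 18 libraries were Sox12, Zcchc3, Col5a1, Myo1d and Slc3a2 (Pearson r 0.882 to 0.908). Those most like Trp53 were Ehhadh, Tti2, Noc2l, Taf4b and Sf3a2 (r 0.811 to 0.824). Members were left out of both searches beforehand. None of these 10 genes belongs to the lists of p53 pathway genes described next.

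**Figure D4:**
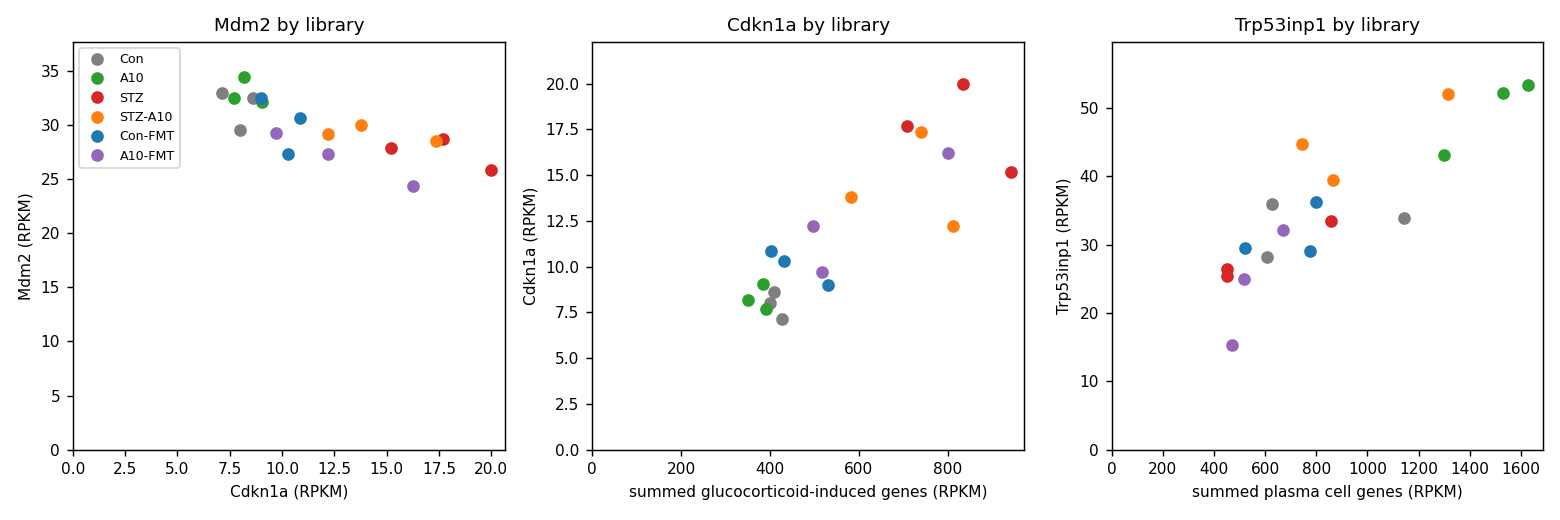
Levels by library in RPKM (linear axes from 0), with 1 point for each of the 18 libraries, coloured by group. Left, Mdm2 against Cdkn1a, where Mdm2 is lower in libraries with more Cdkn1a (r -0.772). Middle, Cdkn1a against the summed glucocorticoid-induced genes, with the STZ libraries at the upper right and the Con and A10 libraries at the lower left. Right, Trp53inp1 against the summed plasma cell genes, with the A10 libraries at the upper right.

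Further genes of the p53 pathway were drawn from 5 lists written from general knowledge. They hold 16 upstream regulators such as Atm and Chek2, 12 targets of cell cycle arrest, 13 of apoptosis, 8 of DNA repair and 10 of metabolism and antioxidant defence. Of these 59 genes, 55 were tested, and by limma 0 passed the adjusted threshold in any of the 9 comparisons, with 1 at an unadjusted p under 0.05 in STZ against Con (11.1% of all tested genes) and 5 in STZ-A10 against A10 (10.2%). In STZ against Con 32 were higher and 23 lower (median log2 fold change 0.02), and in STZ-A10 against A10 26 were higher and 29 lower (median -0.02). The medians over all tested genes were -0.01 and -0.03.

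The list of apoptosis targets had 8 of 13 genes higher in STZ against Con and 5 of 13 in STZ-A10 against A10, with medians of 0.05 and -0.03. The 8 DNA repair targets had medians of -0.05 and -0.07, and the 13 tested upstream regulators 0.02 and 0.04. The 11 tested targets of cell cycle arrest had medians of 0.01 and 0.05, and the 10 metabolic targets 0.06 and 0.01. The median farthest from 0 among these 5 lists was the -0.07 of DNA repair.

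Groups without overlap were found in 2 of the 55 genes in STZ against Con (1 higher and 1 lower) and in 11 in STZ-A10 against A10 (6 higher and 5 lower), no larger a share than the 12.8% and 22.6% of all tested genes. Those of largest change are given as examples. Sesn1, a sestrin like Sesn2, was 67.00, 61.27 and 48.41 RPKM in STZ and 41.55, 41.67 and 47.47 in Con. It was 63.61, 59.09 and 83.22 in STZ-A10 and 40.79, 44.51 and 45.74 in A10, and was higher in every STZ and STZ-A10 library than in its control group. Its log2 fold changes were 0.42 (adjusted p 0.218 by limma) and 0.63 (adjusted p 0.0927 by limma).

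Gadd45b, a stress-induced gene of growth arrest, lay lower with STZ. It was 22.88, 19.06 and 16.22 RPKM in STZ, below the 23.32 to 32.17 of Con, and 32.20, 27.26 and 20.81 in STZ-A10, below the 38.96 to 48.70 of A10. The log2 fold changes were -0.42 (adjusted p 0.603 by limma) and -0.68 (adjusted p 0.328 by limma). Ccnd1, the G1 cyclin D1, was 6.20, 6.98 and 7.03 in STZ-A10 and 9.96, 10.27 and 10.82 in A10, a log2 fold change of -0.55 (adjusted p 0.256 by limma). None of the 3 genes passed the test.

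A pair of further lists bears on Cdkn1a, since glucocorticoids also raise its transcript and since p21 holds down the genes of the dividing cell. Of 14 glucocorticoid-induced genes, 13 were higher in STZ against Con and 14 in STZ-A10 against A10, with median log2 fold changes of 0.75 and 0.95. 1 gene passed the adjusted threshold by limma in each, as did 0.163% and 0.0542% of all tested genes. At an unadjusted p under 0.05 there were 10 and 11, where 11.1% and 10.2% of all tested genes were. Groups without overlap were found in 8 and 13 of the 14, and in 12.8% and 22.6% of all tested genes. Per1, a clock gene, was 15.25, 20.24 and 12.23 RPKM in STZ and 5.42, 7.04 and 9.14 in Con, and rose by 1.04 on the log2 scale (SE 0.177, adjusted p 0.0405 by limma). Pdk4, a kinase that shuts off pyruvate use, was 14.71, 12.13 and 15.30 in STZ-A10 and 2.67, 2.97 and 2.86 in A10, and rose by 1.97 (SE 0.312, adjusted p 0.0322 by limma). Per1 passed in 11 and Pdk4 in 15 of 28 alternatives, with adjusted p up to 0.329 and 0.195. In both, the treated libraries all lay above those of the control group.

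The summed RPKM of the 14 glucocorticoid-induced genes was 351 to 391 in A10, 399 to 426 in Con, 402 to 531 in Con-FMT, 498 to 800 in A10-FMT, 583 to 813 in STZ-A10 and 709 to 942 in STZ. The order of the group means of this sum, from STZ down, was that of Cdkn1a except that Con and A10 changed places. A sum is weighted to the most abundant genes. Gene by gene, 13 of 14 were lower in A10-FMT than in STZ, and 14 of 14 in Con-FMT than in STZ. In A10-FMT against Con-FMT, 11 of 14 were lower and 3 higher (median log2 fold change -0.18). Cdkn1a and the sum had the higher mean in A10-FMT there. Over the 18 libraries Cdkn1a correlated with Per1 at an r of 0.718 (rho 0.614), with Fkbp5 at 0.623 (rho 0.616) and with Tsc22d3 at 0.212 (rho 0.188). Around the group means, r was 0.108, -0.0763 and -0.588. The part of glucocorticoids in the level of Cdkn1a was not tested.

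Of 16 cell cycle genes that p21 is known to lower, 0 passed the adjusted threshold in any comparison by limma. All 16 were higher in STZ against Con, where Cdkn1a was higher too, with a median log2 fold change of 0.10. Several of these changes were far below their SE, the smallest being 0.0038 in Birc5 (SE 0.310). In STZ-A10 against A10 9 were higher and 7 lower, with a median of 0.01, and at an unadjusted p under 0.05 there were 0 in either. Their summed RPKM was 695 to 1242 in STZ and 674 to 1265 in Con. It was 554 to 1001 in STZ-A10 and 757 to 867 in A10, so that the groups overlapped in both. In A10-FMT it was 1002 to 1923, highest in replicate 3, and in Con-FMT 919 to 981. Against STZ, 16 of 16 were higher in A10-FMT (median 0.40), where Cdkn1a was lower, and 3 of 16 in Con-FMT (median -0.10). In A10-FMT against Con-FMT 16 of 16 were higher (median 0.44), 7 without overlap, as were 29.3% of all tested genes. Mki67, which marks dividing cells, correlated with Cdkn1a at an r of 0.388 (rho 0.501) over the 18 libraries, 0.254 without STZ replicates 2 and 3, and 0.768 around the group means.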

How the data were processed

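RNA of 18 spleens (3 in each of 6 groups) was poly(A)-enriched and sequenced by the authors on an Illumina HiSeq instrument. The deposited values are RPKM, which the authors made by aligning reads to reference genes with SOAPaligner. The submitters' processing notes name mm10 and Bowtie 0.12.2, and the annotation is not given in the sources used here. RPKM keeps no read counts, so the authors' count test was not used. RPKM of the remaining genes falls as globin takes a larger share of the reads.

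The 6 lines with 3 repeated names were left out, and 26 names had turned into dates. Genes with an RPKM of at least 1 in 3 libraries (12905) were fitted with limma 3.58.1 (trend, R 4.3.3) on log2(RPKM + 1), with 1 model for all 18 libraries and a coefficient for each group. P-values are two-sided, adjusted by Benjamini-Hochberg, at a threshold of 0.05. The labels treat the 3 libraries of a group as separate samples.

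The members and the gene lists were chosen with earlier results of these data known. Genes named beside the members were those of the p53, glucocorticoid and cell cycle lists past the threshold, the 3 pathway genes of largest change among those without overlap (in STZ against Con and STZ-A10 against A10), and the 5 most like Trp53 and Cdkn1a. The plasma cell list, the genes most like Trp53inp1 and the pooled comparison of mice with and without AOS were added after the values were seen. Promoter windows come from RefSeq, and positions from GENCODE M21 by symbol. Read numbers were estimated from the value of 1 read times the length of the longest GENCODE transcript, and are approximate.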

Additional observations from a re-analysis of the deposited data

How the results depend on the processing

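Between STZ and Con, the count of members past the threshold (1, Cdkn1a) became 0 under quantile normalization, median centring, rescaling without globin genes, a replicate block and a fit of the groups compared alone. It ran from 0 to 1 when libraries were left out in turn, and was 0 without Con-FMT replicate 1 and without replicate 2 of Con, STZ or STZ-A10. With array weights, which weigh libraries by their spread, 7 members passed in STZ against Con, 4 in STZ-A10 against A10, 1 in A10 against Con, 4 in STZ-A10 against STZ, 3 in A10-FMT against STZ, 3 in Con-FMT against STZ, 6 in A10-FMT against Con-FMT, 1 in the interaction and 4 in mice with against without AOS. That fit stopped before it converged and passed 15.3% to 66.0% of all tested genes, so its counts of members stand beside such shares. With a library left out, the counts ran from 0 to 1 in STZ-A10 against A10 (Cdkn1a without A10-FMT replicate 3) and from 0 to 1 in A10-FMT against Con-FMT (Trp53inp1 without A10-FMT replicate 2). The log2 fold change of Trp53 in A10-FMT against Con-FMT turned to 0.030 with median centring. The cause of these changes was not tested. The log2 fold change of Cdkn1a in STZ-A10 against A10 stayed between 0.59 and 0.83 under 28 alternatives, with an adjusted p from 0.000102 to 0.378 and past the threshold in 2. For Trp53inp1 in mice with against without AOS it stayed between 0.57 and 0.68. The replicate numbers were not treated as pairs. In no comparison did all 3 pairs of same-numbered libraries correlate above 0.1 around their group means (r from -0.385 to 0.571). In STZ-A10 against STZ these r were 0.571, 0.0441 and 0.429, so this rule cannot exclude a pairing there. The replicate block changed no other count of members. Depth is known only as an estimate, and for Eda2r it is low enough to hide all but large differences.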
